A study of Mus musculus with 2 samples.

Results

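Secretoglobins and the other secreted airway proteins followed here were 7 genes, Scgb1a1, Scgb3a1, Scgb3a2, Bpifa1, Bpifb1, Muc5b and Reg3g, matched by symbol among the 32285 genes of the count tables. All 7 had counts in both samples. The data were Visium spatial transcriptomes of 1 mouse lung section with no treatment (control) and 1 section of a lung carrying breast cancer metastases (metastatic). Spots that lay on tissue numbered 1888 in the control section, which summed to 20329126 counts (median spot 9643.5), and 1110 in the metastatic section, which summed to 14657881 (median spot 11334.5). The metastases came from 4T1 cells, a mouse mammary tumor line, of which 1000000 were injected into the mammary fat pad of female Balb/c mice aged 6 to 8 weeks, and lungs were taken 21 to 23 days later. The labels give no strain, sex or age for the control mouse.

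Each section came from 1 lung, so there was no replicate, and no test between the conditions could be made. Condition, animal, cutting plane and library cannot be told apart. Levels are counts of a gene per 10000 counts of the same spots (CP10k), with exact 95% Poisson intervals, and ratios carry an exact binomial interval. These intervals cover counting error only. A Visium spot holds several cells, so that fewer cells of a type and less RNA per cell cannot be told apart. Sftpc, the surfactant gene that defines alveolar type II (AT2) cells, had counts in 99.9% of the spots of each section.

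The airways of the lung are lined by ciliated cells and by secretory cells that coat them with proteins and mucus. In the mouse the main secretory cell is the club cell, which also metabolises foreign compounds and renews the lining after injury. Secretory products differ along the airway: Scgb3a1, Bpifb1 and Muc5b are known from the larger, proximal airways, and Scgb3a2 is often used as a mark of the terminal bronchioles. Scgb1a1 encodes the club cell secretory protein, or uteroglobin, the classical club cell marker. Scgb3a1 and Scgb3a2 encode further secretoglobins. Bpifa1 (SPLUNC1) and Bpifb1 (LPLUNC1) belong to a family related to the bactericidal permeability-increasing protein, Muc5b is a gel-forming mucin needed for mucociliary clearance, and Reg3g is a C-type lectin that acts on Gram-positive bacteria.

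On the GRCm38 (mm10) annotation all 7 were protein-coding genes. Scgb1a1 lay at chr19:9083636-9087958 on the minus strand, Scgb3a1 at chr11:49663610-49665118 on the plus strand and Muc5b at chr7:141839070-141873084 on the plus strand. Bpifa1 (chr2:154142880-154149219) and Bpifb1 (chr2:154190818-154220369) shared chromosome 2 and the plus strand, and Reg3g lay at chr6:78466269-78468872 on the minus strand.

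The 250 bases before the transcription start are printed for Scgb3a1, Bpifa1, Bpifb1 and Reg3g (RefSeq, GRCm38.p6, 5′ to 3′ on the strand of the gene). The RefSeq promoter table was searched for all 7 genes, and only these 4 matched. They are thus not a group chosen by level, and Muc5b, the gene most like Scgb3a1 over control airway spots, is not among them. Capitals mark matches, on either strand, to the forkhead core in its forms TGTTTAC and TGTTTGC, to CTCAAG, the core known for NKX2-1, the transcription factor of the lung lineage, and to the TATA box, TATAAA.
Scgb3a1 (chr11:49663345-49663594, + strand): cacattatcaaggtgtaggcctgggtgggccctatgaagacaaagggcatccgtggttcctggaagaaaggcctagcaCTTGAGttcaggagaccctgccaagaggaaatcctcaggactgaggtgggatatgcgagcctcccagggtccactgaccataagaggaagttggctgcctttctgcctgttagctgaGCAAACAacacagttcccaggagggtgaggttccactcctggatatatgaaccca
Bpifa1 (chr2:154142630-154142879, + strand): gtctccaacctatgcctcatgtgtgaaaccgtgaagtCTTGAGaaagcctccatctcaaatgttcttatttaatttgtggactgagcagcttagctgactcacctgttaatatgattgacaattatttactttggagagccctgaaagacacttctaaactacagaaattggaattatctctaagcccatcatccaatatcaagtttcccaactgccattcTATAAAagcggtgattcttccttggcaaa
Bpifb1 (chr2:154190568-154190817, + strand): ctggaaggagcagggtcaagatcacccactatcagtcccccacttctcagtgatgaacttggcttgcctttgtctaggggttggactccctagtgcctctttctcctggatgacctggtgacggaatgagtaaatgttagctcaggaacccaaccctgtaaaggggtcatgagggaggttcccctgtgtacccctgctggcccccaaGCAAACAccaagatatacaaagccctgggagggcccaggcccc
Reg3g (chr6:78468875-78469124, - strand): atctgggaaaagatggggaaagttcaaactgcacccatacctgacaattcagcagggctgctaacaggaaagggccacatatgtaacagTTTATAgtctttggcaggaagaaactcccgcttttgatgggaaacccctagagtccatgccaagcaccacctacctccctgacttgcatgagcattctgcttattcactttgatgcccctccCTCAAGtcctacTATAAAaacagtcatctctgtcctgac
TGTTTGC, as its reverse complement, was found in Scgb3a1 from base -55 to -49 and in Bpifb1 from base -43 to -37, counted from the transcription start, and in 4.30% of all 32851 promoters of this length. TGTTTAC was found in none of the 4 and in 3.17% of all promoters. CTCAAG was found in Scgb3a1, Bpifa1 and Reg3g and in 13.3% of all promoters, and TATAAA in Bpifa1 and Reg3g and in 12.4%. The matches did not overlap. No motif searched was shared by all 4 promoters, and a match describes letters in this window, not a bound site.

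Scgb1a1 was present almost everywhere. It made up 15.2% of all counts in the control section, 3097397 counts, and 18.4% in the metastatic section, 2690781 counts. Every one of the 1888 control spots had Scgb1a1 counts, from 14.1 to 7420 CP10k with a median of 374.6, and 1109 of the 1110 metastatic spots did, from 0 to 7209 with a median of 543.4. The 1 spot without it had 195 counts of any gene. It exceeded 50% of the counts of a spot in 97 control and 53 metastatic spots. Scgb3a2 had counts in 89.6% of control and 78.1% of metastatic spots, while the other 5 genes had them in fewer: in the control section Scgb3a1 was counted in 47.3% of spots, Muc5b in 12.6%, Bpifb1 in 10.2%, Bpifa1 in 7.26% and Reg3g in 3.87%.

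In the control section the counts of 5 genes were gathered in few spots. At least 50% of the Bpifa1 counts lay in 4 spots, and the like number was 5 for Reg3g, 10 for Scgb3a1, 10 for Bpifb1 and 21 for Muc5b. It was 58 for Scgb3a2 and 77 for Scgb1a1. Among the 3276 control genes with at least 1000 counts, Bpifa1, Bpifb1 and Scgb3a1 ranked 1, 2 and 3 by the share of counts held by the top 5% of spots (98.8%, 91.8% and 91.8%, against a median of 21.7% over these genes), with Scgb3a2 at 36 (60.5%) and Scgb1a1 at 43 (55.4%). The highest single spot held 612 of the 3572 Bpifa1 counts. In the metastatic section Scgb1a1 ranked 13 and Scgb3a2 10 of 2114 genes, and the remaining 5 genes had from 7 to 412 counts in all.

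**Figure D1:**
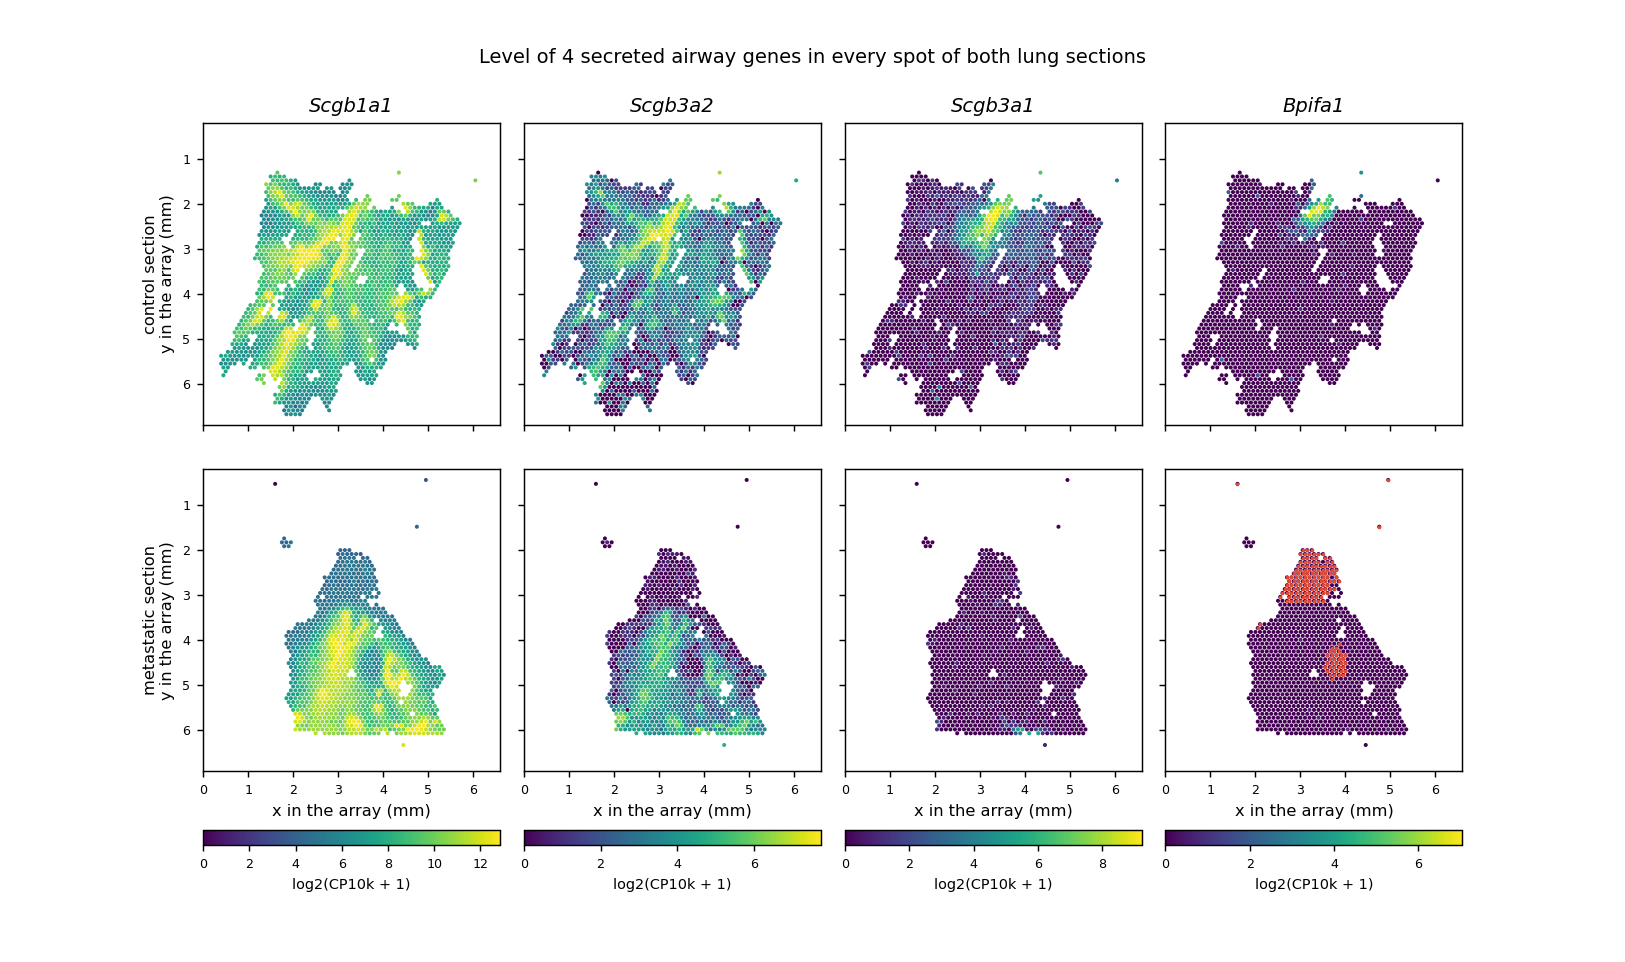
Each point is 1 spot at its place in the array (x and y in mm), coloured by log2(CP10k + 1) of the gene above each column; control section in the upper row, metastatic section in the lower row, with 1 color scale per gene. Red points in the Bpifa1 panel of the metastatic section mark the 165 metastasis spots. Scgb1a1 has a count in all but 1 spot, while Bpifa1 is held by a small region of the control section and had 7 counts in the metastatic section.

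Airway spots were set from ciliated cell genes, none of which is among the 7. A spot counted as airway when 17 ciliated genes (Foxj1, the master regulator of motile cilia, and others) summed to at least 15 per 10000 counts of all other genes than the 7, a value chosen after the data were seen. This gave 217 control spots (11.5%) and 131 metastatic spots (11.8%). Foxj1 stood at 1.36 CP10k in control airway spots against 0.168 outside, and at 0.871 against 0.156 in the metastatic section. Scgb1a1 made up 50.4% of all counts in control airway spots and 52.9% in metastatic ones, which lowers the share left to every other gene there.

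The 5 gathered genes sat in 1 stretch of the control airway. Its centre was taken as the count-weighted centre of a list of 8 proximal, goblet and gland genes, none of the 7, of which 81.2% of 2821 counts lay within 1000 µm. Tff2, a mucosal trefoil peptide, and Lypd2 gave 80.8% of the list's counts. Basal cell genes (25 counts in the whole section) and cartilage genes (12 counts), markers of the trachea and the largest airways, had too few counts to be read. Airway spots were then read by distance from this centre: 52 spots within 500 µm, 42 from 500 to 1000 µm, 67 from 1000 to 2000 µm and 56 beyond 2000 µm.

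Scgb3a1 had 227.5 CP10k within 500 µm, 61.8 from 500 to 1000 µm, 0.830 from 1000 to 2000 µm and 0.125 beyond, so that the nearest zone was 1816 times the farthest (957 to 3972). All 52 nearest spots had Scgb3a1 counts, with a lowest spot of 14.5, a median of 123.5 and a highest of 594.1 CP10k, while 9 of the 56 farthest did and none exceeded 1.25. The spot ranges of these 2 zones did not overlap, but the zones were drawn around a centre set by genes much like Scgb3a1. The share of all genes without overlap was not computed. Bpifa1 stood at 17.3, 14.4, 0.0602 and 0 CP10k over the same zones, at least 337-fold higher in the nearest zone than in the farthest by the lower limit of the exact interval. Its spots were unlike those of Scgb3a1 in that 12 of the nearest 52 had none, and the highest spot of all, 131.2 CP10k, lay between 500 and 1000 µm.

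Bpifb1 and Muc5b followed the same course at lower levels. Bpifb1 had 6.70, 2.91, 0.0335 and 0 CP10k, and Muc5b 5.02, 1.83, 0.0736 and 0. By the same lower limit these were at least 130-fold and at least 97.4-fold higher in the nearest zone than in the farthest. Beyond 1000 µm they had 5 and 11 airway counts in all. Reg3g had 2.74, 1.18, 0.00669 and 0.0139 CP10k, where each of the last 2 values is 1 count, and the ratio of the nearest to the farthest zone was 197 (35.0 to 7791). Over the 217 control airway spots the Pearson correlation r of log2(CP10k + 1) was 0.911 for Scgb3a1 with Muc5b, 0.862 with Bpifb1, 0.760 with Bpifa1 and 0.677 with Reg3g, as a description of spots that share 1 library and their total counts.

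**Figure D2:**
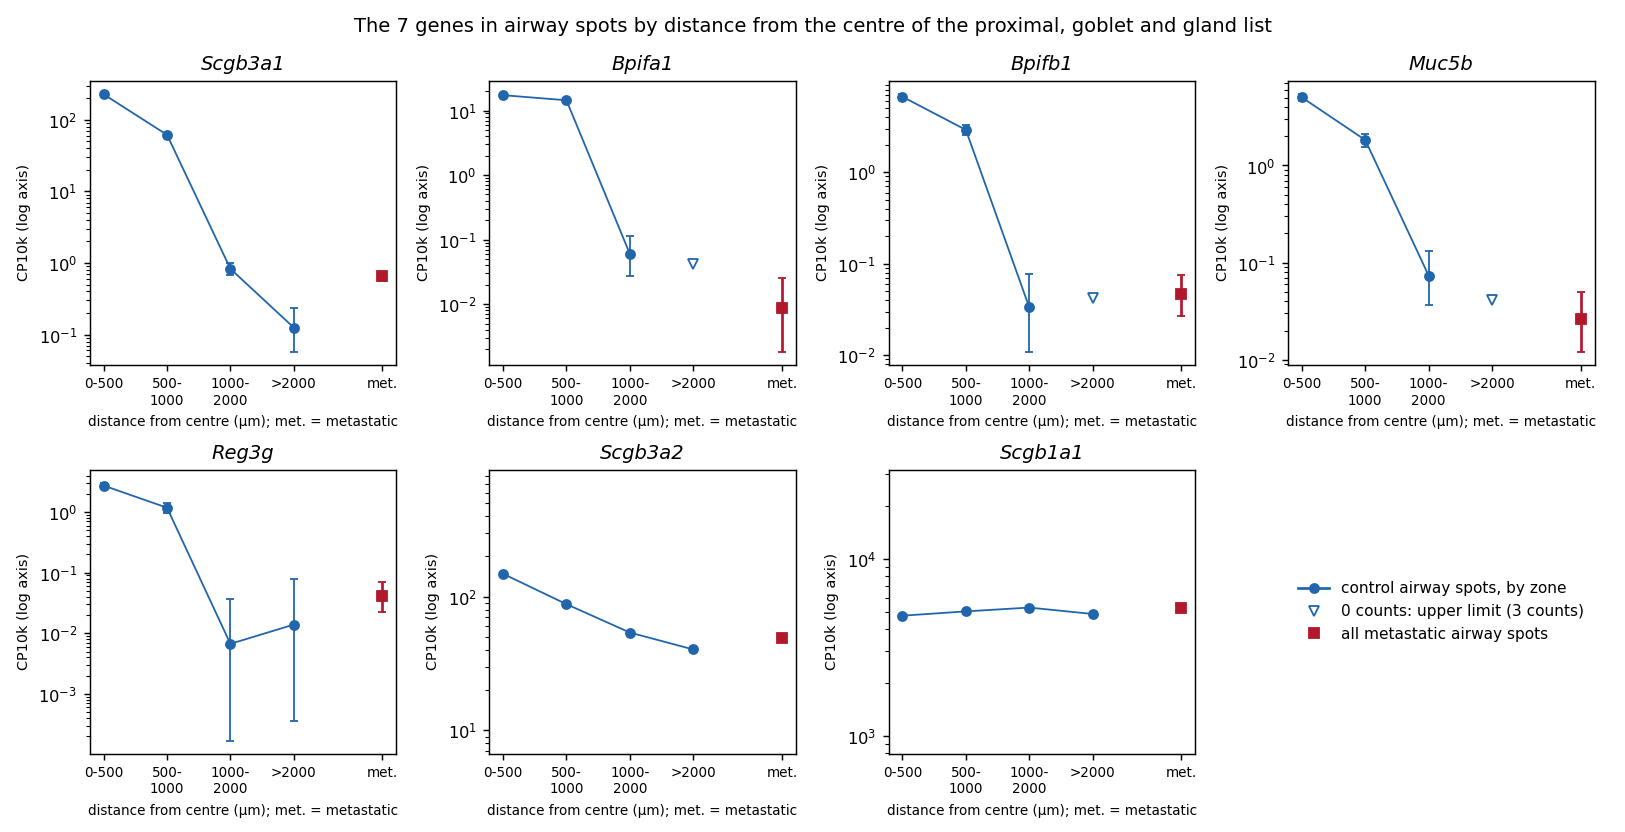
CP10k on a log axis in control airway spots (blue circles, by distance in µm from the centre of the proximal, goblet and gland list) and in all 131 metastatic airway spots (red squares, labelled met.); bars are exact 95% Poisson intervals and open triangles the limit of 3 counts where none was seen. Scgb3a1 goes from 227.5 to 0.125 CP10k, Bpifa1, Bpifb1 and Muc5b reach 0 counts and Reg3g 1 count in the farthest zone, Scgb3a2 goes from 148 to 40.3 CP10k, and Scgb1a1 stays between 4779 and 5310.

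Scgb3a2 did not run opposite to the proximal genes. It had 148.2 CP10k within 500 µm of the centre, 87.9 from 500 to 1000 µm, 53.9 from 1000 to 2000 µm and 40.3 beyond, 3.68 times higher in the nearest zone than in the farthest (3.53 to 3.83). The lowest, median and highest nearest spots were 17.7, 135.4 and 214.9 CP10k, against 0, 39.5 and 65.0 in the farthest zone, so the ranges overlapped. Its level was highest where Scgb3a1 and Bpifb1 were highest, although the branching order of the airways was not read and distance from the centre is the only order used. Ciliated genes were also higher near the centre, 35.9 CP10k against 16.1 beyond 2000 µm, and AT2 genes lower, 48.1 against 99.3, and the part of this in the Scgb3a2 gradient was not tested. Per count of the ciliated genes Scgb3a2 was 1.51 times higher within 500 µm than beyond 1000 µm, while per total count it was 2.995 times higher.

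Scgb1a1 per total count varied little along the same axis, with 4779, 5052, 5310 and 4886 CP10k from the nearest to the farthest zone. Cyp2f2, a club cell cytochrome P450, stood at 51.1, 43.6, 40.3 and 36.9 CP10k, 1.38 times higher in the nearest zone than in the farthest (1.32 to 1.45). Per count of the ciliated genes both were lower within 500 µm than beyond 1000 µm, Scgb1a1 at 0.466 times and Cyp2f2 at 0.657 times. Within 500 µm against beyond 1000 µm, 6 of the 7 genes were over 2-fold higher and none was lower. Of the 5662 genes with at least 50 counts in both sets together, 4.8% were higher and 6.45% lower. Scgb1a1 was the remaining gene, at 0.924 times (0.921 to 0.927). Bpifa1, Bpifb1, Muc5b and Reg3g passed this count limit only through the nearest zone. Genes that set the centre, such as Lypd2 and Tff2, were among those most like the gathered genes. Higher levels near it were thus partly built in, and the count is a description.

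Over control airway spots r was 0.568 between Scgb3a1 and Scgb3a2 and 0.416 between Bpifb1 and Scgb3a2, both positive. It was 0.378 and 0.175 within 1000 µm of the centre (94 spots) and 0.244 and 0.112 beyond (123 spots). With totals that leave out the 7 genes it was 0.462 and 0.350 over all 217 spots. In the 131 metastatic airway spots r was 0.330 for Scgb3a1 with Scgb3a2, and only 18 of these spots had any Scgb3a1. Every control airway spot with Scgb3a1 at or above 14.5 CP10k, the lowest of the nearest zone, had at least 17.7 CP10k of Scgb3a2. That value is also the lowest of the nearest zone, and most spots far from the centre passed it too. Their lower quartile of Scgb3a2 was 34.7 CP10k from 1000 to 2000 µm and 22.5 beyond 2000 µm.

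**Figure D3:**
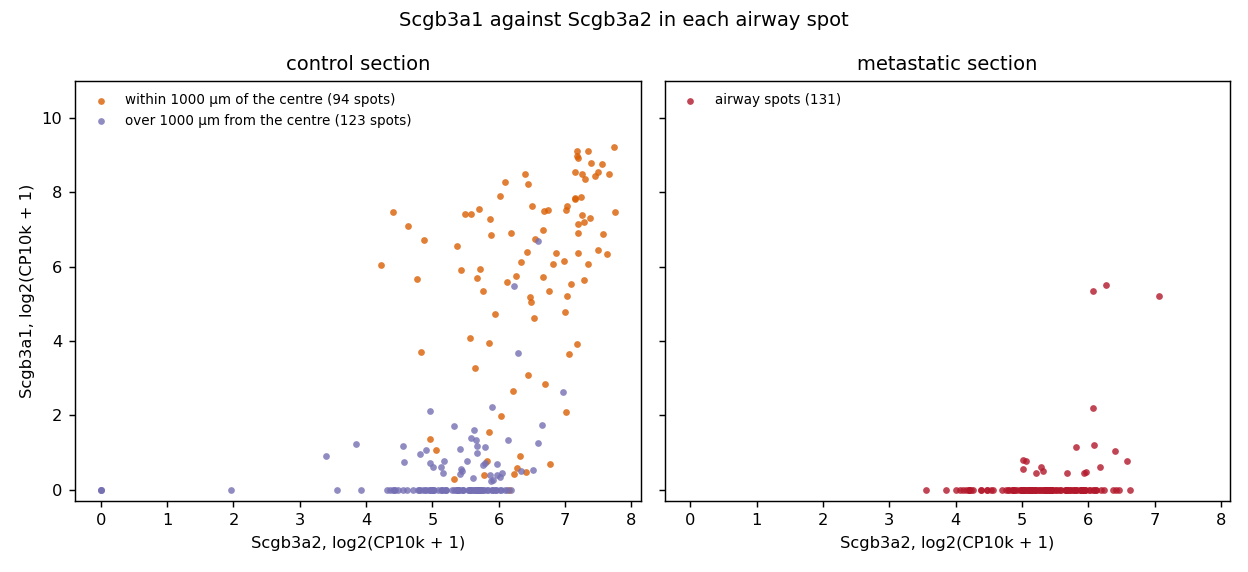
Scgb3a1 against Scgb3a2, both as log2(CP10k + 1), in each airway spot of the control section (orange within 1000 µm of the centre, 94 spots; purple beyond, 123 spots) and of the metastatic section (131 spots). High Scgb3a1 occurs with high Scgb3a2 in the orange spots, and most purple and red spots lie at or near 0 for Scgb3a1 over a range of Scgb3a2.

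Connected groups of at least 5 airway spots numbered 9 in the control and 6 in the metastatic section. The largest control group, 112 spots and 2272 µm long, held 31254 Scgb3a1 counts (122.2 CP10k), and the other 8 groups together held 23, from 0 to 1.36 CP10k. Scgb3a2 was 107.2 CP10k in the largest group and from 33.2 to 75.5 in the other 8. Among those 8, the group with the highest Scgb3a1 (1.36, on 12 counts) also had the highest Scgb3a2 (75.5). The group next highest for Scgb3a2 (54.6) had 1 Scgb3a1 count, so the 2 genes were not ordered alike over these groups. The 6 metastatic groups ranged from 0 to 0.586 CP10k for Scgb3a1 and from 44.5 to 83.7 for Scgb3a2. There 1 group, of 6 spots, was highest for both, on 11 Scgb3a1 counts, while a group of 12 spots with 0 Scgb3a1 counts had 52.8 CP10k of Scgb3a2. Scgb1a1 was between 4720 and 5370 CP10k over the control groups and between 5119 and 6160 over the metastatic ones.

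The metastatic section had little of the 5 gathered genes. Scgb3a1 had 35431 counts in the control section (17.4 CP10k; 17.3 to 17.6) and 412 in the metastatic section (0.281; 0.255 to 0.310), 62.0-fold lower (56.3 to 68.5). Bpifa1 had 3572 and 7 counts, Bpifb1 1214 and 22, Muc5b 956 and 23, and Reg3g 452 and 18. These were 368-fold lower for Bpifa1 (178 to 916), 39.8-fold for Bpifb1 (26.2 to 63.7), 29.97-fold for Muc5b (19.9 to 47.5) and 18.1-fold for Reg3g (11.3 to 30.8). Scgb3a2 went from 24.4 to 16.9 CP10k, a ratio of 0.695 (0.684 to 0.706), and Scgb1a1 from 1524 to 1836 CP10k, a ratio of 1.205 (1.203 to 1.207). Thus 5 of the 7 were over 2-fold lower and 0 over 2-fold higher, beside 4.08% lower and 4.14% higher of the 13792 genes with at least 50 counts in the 2 sections together. Bpifa1, Bpifb1, Muc5b and Reg3g passed this limit only through their control counts. With so few metastatic counts they could not have been called higher.

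The same split was seen in airway spots alone. Scgb3a1 was 73.5 CP10k in control and 0.648 in metastatic airway spots, 113-fold lower (99.3 to 130), and the ratio of 0.00882 became 0.00113 without the 5 spots at the lower edge that held most Scgb3a1. Bpifa1 had 3302 counts in control and 3 in metastatic airway spots, a ratio of 0.00114 (0.000235 to 0.00333). Again 5 of 7 genes were over 2-fold lower and 0 higher, beside 3.46% lower and 1.69% higher of 9216 genes. Bpifa1, Bpifb1, Muc5b and Reg3g again passed the count limit only through the control. Scgb3a2 stood at 83.8 and 49.2 CP10k, a ratio of 0.587 (0.576 to 0.598), and Scgb1a1 at 5043 and 5286, a ratio of 1.05 (1.046 to 1.050). The ciliated genes that set the airway spots were themselves lower in the metastatic airway, 15.2 against 24.5 CP10k, and per count of these genes the ratio of Scgb1a1 was 1.69 and that of Scgb3a2 0.945.

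These last 2 ratios hung on which spots counted as airway. With the ciliated threshold that had been planned, Otsu's method on all 18 ciliated genes, which took in 1602 control and 616 metastatic spots, Scgb1a1 had a ratio of 1.76 and Scgb3a2 of 1.02. With club cell genes in place of ciliated genes Scgb1a1 had a ratio of 0.908. Scgb3a1 had a ratio from 0.00302 to 0.0215 under these and the other airway thresholds tried.

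Most of the control counts behind this gap lay in the 1 stretch of control airway described above. Set against the 123 control airway spots beyond 1000 µm from the centre, the metastatic airway had 0.648 CP10k of Scgb3a1 against 0.601, a ratio of 1.08 (0.866 to 1.35). Both levels were below that of control spots over 500 µm from any airway spot, given further on. The comparison is thus between levels also seen outside the airway. The ratio of 1.08 rested on few spots: 3 metastatic airway spots at the lower edge held all but 28 of the 221 counts. Without them the metastatic level was 0.0833 CP10k, 7.21-fold lower than control. They were picked for their high Scgb3a1, so a fall was fixed in advance and the size of this fold measures no difference between sections. Metastatic spots over 300 µm from the airway and over 500 µm from the metastases had 0.102 CP10k. Without 2 detached control airway spots the control level was 0.367 CP10k and the ratio 1.76 (1.36 to 2.30). The metastatic and control spots were not left out together. Scgb3a2 was 49.2 against 49.5 (ratio 0.994; 0.970 to 1.02) and Scgb1a1 5286 against 5172 (ratio 1.02; 1.020 to 1.024). Of the 7 genes, 3 had at least 50 counts in this comparison and all 3 were within 2-fold, Scgb3a1 only with the edge spots, beside 0.834% higher and 1.18% lower of 8038 genes. Bpifa1 had 3 against 9 counts, Bpifb1 16 against 5, Muc5b 9 against 11 and Reg3g 14 against 2, too few to rank. Whether the metastatic section lacked this stretch through its cutting plane or had lost its expression cannot be told apart. The control section also held cardiac-type muscle genes, which line pulmonary veins in the mouse, at 37777 counts against 10 in the metastatic section, and a part of cutting plane in this was not tested.

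A trace of the same genes was found at the lower edge of the metastatic section. The 5 spots with most Scgb3a1, chosen for it, lay within 557 µm of each other and held 96, 54, 48, 43 and 19 counts. Together they had 260 of the 412 Scgb3a1 counts (63.1%), 16 of 23 Muc5b counts, 13 of 18 Reg3g counts and 10 of 22 Bpifb1 counts, beside 10 of 14 counts of Tff2, but 0 of 7 of Bpifa1. Their Scgb3a1 level was 32.7 CP10k and their Scgb3a2 level 76.2. Of these spots 3 were airway spots, and the other 128 metastatic airway spots had 0.0833 CP10k of Scgb3a1, 28 counts in all.

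Outside the airway spots lay 30.5% of the Scgb1a1 counts of the control section and 33.02% of those of the metastatic section. The share was 27.8% and 32.4% for Scgb3a2. For Scgb3a1 it was 11.4% of 35431 control counts, and for Bpifa1 7.56%, Bpifb1 15.3%, Muc5b 22.2% and Reg3g 7.30%. Foxj1 had 31.8% and 37.2% of its counts outside, though it helped to set the airway spots. The Scgb1a1 share moved with the airway threshold, to 23.4% and 23.3% at 10 and to 41.3% and 56.3% at 30 for the control and metastatic sections, and to 2.14% and 4.50% with the planned threshold.

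By distance to the nearest airway spot, control Scgb1a1 was 5043 CP10k in the airway, 1362 up to 100 µm away, 643 up to 200, 400.3 up to 300, 326.0 up to 500 and 312.1 beyond. Beyond 500 µm it was thus at 6.19% of the airway level, with the lowest of the 382 farthest spots still at 29.8 CP10k. Metastatic Scgb1a1 was 5286, 1931, 1027, 789, 411 and 56.4 CP10k over the same distances, higher than control up to 500 µm and lower beyond it. Among the farthest metastatic spots the 108 metastasis spots had 24.96 CP10k and the other 147 had 105.8, so that the lower value beyond 500 µm was seen without the metastasis spots too. This last distance class has no upper limit, and metastatic spots in it lay up to 3400 µm from an airway spot. Distances within it were not matched between the sections. Such percentages depend on the totals, of which Scgb1a1 is itself a large share: over all spots outside the airway its level was 11.7% of the airway level in the control and 14.9% in the metastatic section, and 5.93% and 7.57% with totals that leave out the 7 genes.

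Scgb3a2 was lower with distance in step with Scgb1a1. Per 1000 Scgb1a1 counts, Scgb3a2 had 12.2 to 20.3 counts over the 6 control distances and 8.53 to 10.0 over the metastatic ones, while Scgb1a1 itself came down to 6.19% and 1.07% of its airway level. Cyp2f2 had 8.58 to 13.7 and 7.52 to 12.46 per 1000 Scgb1a1 counts. Cbr2, a carbonyl reductase of club cells also made elsewhere in the lung, did not keep step: it had 17.2 in the control airway and 70.7 beyond 500 µm, and 17.8 and 152 in the metastatic section. Sftpc ran the other way, from 43.6 CP10k in the control airway to 310.7 beyond 500 µm. In the control section Scgb3a1 kept a lower share than Scgb1a1 outside the airway, at 1.43 CP10k or 1.94% of its airway level beyond 500 µm. That airway level came mostly from 1 stretch, and control airway over 1000 µm from its centre had 0.601 CP10k, less than the 1.43. In the metastatic section the order was the other way: 46.4% of 412 Scgb3a1 counts lay outside the airway, against 33.02% for Scgb1a1.

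**Figure D4:**
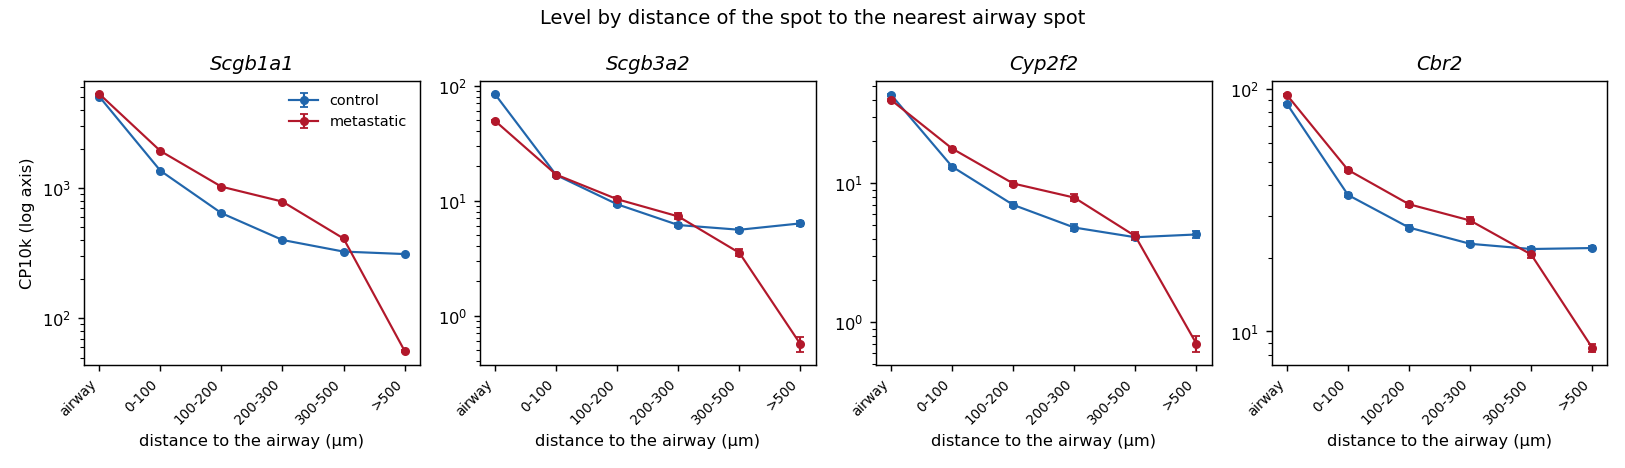
CP10k on a log axis by distance in µm to the nearest airway spot, for the control (blue) and metastatic (red) sections; bars are exact 95% Poisson intervals, mostly smaller than the points. Scgb1a1, Scgb3a2 and Cyp2f2 share their course within a section and level off beyond 300 µm in the control section, while metastatic Scgb1a1 ends at 56.4 CP10k.

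Spots that did not touch the main piece of tissue gave a further reading. In the control section these 10 spots had from 4.97% to 14.3% of their counts from Scgb1a1. Those with 14.2% and 11.9% were airway spots themselves, and the others lay from 100 to 953.9 µm from an airway spot. In the metastatic section 9 of 10 such spots had from 0% to 0.324% and lay at least 1931 µm from an airway spot, and the remaining 1, an airway spot by its ciliated genes, had 44.0%. How far Scgb1a1 outside the airway was made in place or carried there as free RNA was not tested.

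Metastasis spots had the least Scgb1a1 and Scgb3a2 of the zones read here. They were the cluster, among 5 set by k-means without the 7 genes, with the most proliferation and keratin counts (8.76 CP10k against 2.20 to 3.97), 165 spots in 2 large groups of 125 and 35 spots and 4 small ones, none of them airway. AT2 genes stood at 61.3 CP10k in them, with a median spot of 46.0, against 191.0 beyond 500 µm, so alveolar or mixed spots may be included. The paper set its metastasis core by another method and counted fewer spots. All distances to the metastases rest on this cluster. Scgb1a1 was 36.3 CP10k there, yet 164 of the 165 spots had it, with a median of 28.2. It was 1581 CP10k in the 107 spots up to 200 µm away, 2085 in the 208 spots from 200 to 500 µm and 2369 in the 630 spots beyond. Scgb3a2 was 0.315, 13.3, 16.9 and 22.8 CP10k over the same zones. Bpifa1, Muc5b and Reg3g had 0 counts in all spots up to 500 µm from the metastases or within them. Bpifb1 had 2 counts in these spots, both within the metastases.

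The airway itself was unevenly spread over these zones, with 8 airway spots up to 200 µm, 34 from 200 to 500 µm and 89 beyond. In airway spots alone Scgb1a1 was 6008, 4870 and 5326 CP10k, so that its ratio up to 200 µm over beyond 500 µm was 1.13, against 0.667 (0.665 to 0.670) over all spots. Scgb3a2 was 50.4, 39.6 and 52.2 CP10k in airway spots. In spots over 300 µm from any airway Scgb1a1 was 129.8, 249.2 and 425.7 CP10k, a ratio of 0.305, and Scgb3a2 1.32, 2.44 and 3.59. Scgb1a1 was thus lower toward the metastases in spots over 300 µm from any airway. Those spots were not matched for distance to the airway, and their ciliated genes were lower toward the metastases too (1.55, 2.03 and 2.52 CP10k). The part of airway distance in this was not tested. In airway spots Scgb1a1 was not lower up to 200 µm than beyond 500 µm, on 8 spots, and was lowest from 200 to 500 µm.

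**Figure D5:**
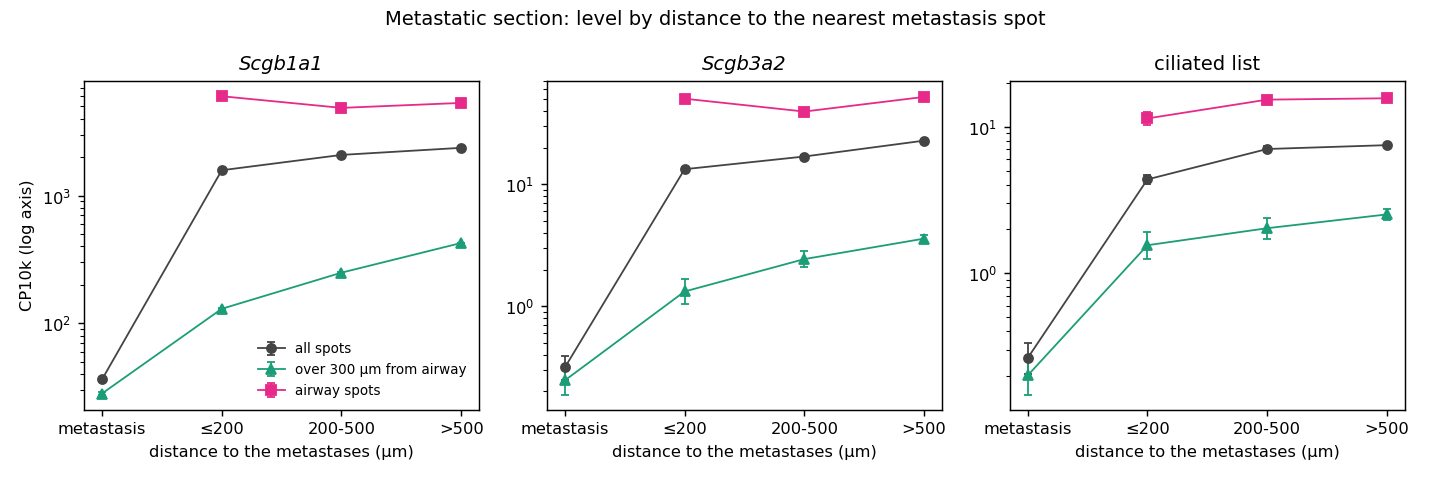
CP10k on a log axis in the metastatic section by distance in µm to the nearest metastasis spot, over all spots (grey), spots over 300 µm from an airway spot (green) and airway spots (pink; none lay in the metastases); bars are exact 95% Poisson intervals. Scgb1a1 and Scgb3a2 go up with distance in the green and grey series, as the ciliated list does, and stay within a narrow range in airway spots.

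Few relatives of these genes were measured. Of 31 other secretoglobin symbols only Scgb1c1 had counts, 1935 in the control and 1035 in the metastatic section, with 2.28 and 1.55 CP10k in airway spots. Scgb1c1 was lower within 500 µm of the centre than beyond 1000 µm, at 0.676 times (0.568 to 0.801). Of 12 other Bpif symbols none reached 100 counts. Of 12 other mucin symbols 4 did: Muc1, a membrane mucin, was 1.72 and 1.80 CP10k in control and metastatic airway spots, Muc4 0.428 and 0.191, Muc20 0.0983 and 0.0440, and Muc16 had too few airway counts to compare. None of 6 other Reg symbols had a count.

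A list of 29 other airway secreted and defence genes held 25 with at least 100 counts. In airway spots 5 of the 25 were over 2-fold lower in the metastatic section, 3 higher and 17 within 2-fold, with a median ratio of 0.918, beside 3.46% lower and 1.69% higher of all 9216 genes. The 5 were Tff2 (ratio 0.0151), Itln1 (0.0659), Ltf (0.0777), Agr2 (0.125) and Lypd2 (0.139). The 3 were Retnlg (5.58), Chil3 (3.73) and Slpi (2.18), genes also made by neutrophils or macrophages. A list of neutrophil genes, Retnlg among them, was 17.6-fold higher in the metastatic airway spots (6.13 against 0.349 CP10k), and their part in these ratios was not tested. Against control airway beyond 1000 µm none of the 25 was over 2-fold lower, and Retnlg (4.54), Chil3 (3.44) and Slpi (2.47) were higher, beside 1.18% lower and 0.834% higher of all 8038 genes. Itln1 had 0 counts there and was not called. Within 500 µm of the centre 9 of the 25 were over 2-fold higher than beyond 1000 µm, among them Wfdc2, a secreted protease inhibitor-like protein (2.27), Pigr, the receptor that carries IgA across the lining (2.05), Gsto1 (3.13) and Sftpa1 (2.00), and 4 were lower: Lyz1 (0.169), Retnla (0.199), Chia1 (0.317) and Lyz2 (0.355), beside 4.8% higher and 6.45% lower of all 5662 genes. Tff2, Ltf, Agr2 and Lypd2, also among the 9, belong to the list that set the centre, and Itln1 made up the 9 with 0 counts beyond 1000 µm.

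By likeness over airway spots, Cyp2f2 came first for both Scgb1a1 (r = 0.763 over 217 control spots and 0.643 over 131 metastatic spots) and Scgb3a2 (0.793 and 0.626), among 1243 genes. Hp and Mgst1 followed for Scgb1a1, and Wfdc2 and Scgb1a1 for Scgb3a2. In the control section alone, where the other 5 had enough counts, Muc5b (0.911), Lypd2 (0.886) and Bpifb1 came first for Scgb3a1 among 1749 genes. Ltf, the lactoferrin gene, came first for Bpifa1 (0.896), Bpifa1 for Bpifb1 (0.893) and Reg3g (0.855), and Scgb3a1 for Muc5b.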

How the data were processed

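Fresh-frozen sections were stained, imaged and permeabilised on a slide. The authors deposited raw counts per gene and spot from Visium libraries, made with Space Ranger 1.3.1 on mm10 per the labels, with spot positions. Values used here were counts over spot totals times 10000. Python 3.11.15 with numpy 2.4.6, scipy 1.17.1, pandas 2.3.3 and scikit-learn 1.9.0 was used. Distances take a spot pitch of 100 µm. The sections share 858 barcodes, which are positions of the same array design. Folds over many genes used at least 50 counts in the 2 sets of spots together and 0.5 added counts. Intervals were tested on simulated data. The 7 genes and all lists were chosen with earlier results of these data known. The planned airway threshold took in 84.9% of control spots and 55.5% of metastatic spots, and it was replaced after the data were seen by 17 ciliated genes, without Tppp3, at 15 or more per 10000 counts of other genes. Genes named are the 7, related genes with at least 100 counts, leading genes of the lists, and the 3 genes most like each of the 7. Others, such as Foxj1 and Sftpc, were added as checks after values were seen. Alternatives covered totals, depth, thinning to 3000 counts, airway and metastasis rules. No other per-sample column was left unused (0).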

Additional observations from a re-analysis of the deposited data

How the results depend on the processing

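No paired analysis was possible because each condition had 1 section, and no replicate could be left out. Of 192 recomputed values over 22 results, 88 stayed within the 95% counting interval of the value reported (within 0.1 for r), 98 moved and 6 reversed. The Scgb1a1 ratio of metastatic over control in all spots, 1.205, moved to 1.25 with totals without the 7 genes, 1.201 in spots of at least 2000 counts, 1.25 after thinning to 3000 counts, 1.297 as a mean over spots and 1.45 without metastasis spots. In airway spots, 1.05 moved to 1.08 with totals without the 7 genes, 1.07 thinned, 1.10 as a mean over spots, 1.69 per ciliated count, 1.76 with the planned threshold, 1.54 with 50% of it, 1.55 with double that threshold, 1.05 at 10, 1.09 at 30, 1.06 without the 5 edge spots, 1.02 against control airway beyond 1000 µm and 1.03 there without the edge spots, and reversed to 0.908 with club genes. The Scgb3a1 ratio in all spots, 0.0161, moved to 0.0293 thinned, 0.0300 as a mean over spots and 0.0187 without metastasis spots. In airway spots, 0.00882 moved to 0.0183 thinned, 0.0168 as a mean, 0.0142 per ciliated count, 0.0215 with the planned threshold, 0.0192 with 50% of it, 0.0143 with double that threshold, 0.00302 at 30 and 0.00113 without the 5 edge spots, and reversed to 1.08 against control airway beyond 1000 µm (0.139 there without the edge spots), where Bpifb1 (2.08) and Reg3g (4.54) reversed as well on few counts. Scgb3a2 in airway spots reversed to 1.02 with the planned threshold. The Scgb1a1 share outside the airway, 30.5% in the control and 33.02% in the metastatic section, moved to 47.6% and 55.1% thinned, 2.14% and 4.50% with the planned threshold, 0.301% and 1.01% with 50% of it, 12.8% and 16.5% with double that threshold, 19.0% and 8.64% with club genes, 23.4% and 23.3% at 10, and 41.3% and 56.3% at 30. The correlation r of Scgb3a1 with Scgb3a2, 0.568, moved to 0.462 with totals without the 7 genes and 0.714 at 30, and that of Bpifb1, 0.416, to 0.541 at 30. The Scgb1a1 ratio near the metastases, 0.667, moved to 0.604 with totals without the 7 genes, 0.673 in spots of at least 2000 counts, 0.497 thinned, 0.231 with the top 5% of the tumour list as metastasis and 0.305 far from the airway, and reversed to 1.13 in airway spots. The cause was not tested. Bpifa1, Bpifb1, Muc5b and Reg3g had 7 to 23 metastatic counts, so their order there was not detectable at this depth.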
